A study of Mus musculus with 4 samples.

Results

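The genes described here are the aminoacyl-tRNA synthetases of the mouse heart, 20 that serve the cytosol and 16 that serve the mitochondrion, taken by symbol from a list. All 36 were found among the 53465 genes of the count files, and all 36 had enough reads to be tested. The RNA was ventricular, taken from mouse pups at postnatal day 1, and nothing in the labels says that the libraries are separate animals, so p-values measure only the spread between them. Control libraries (n = 2) had the genotype Ctnnb1floxP/floxP; alphaMHC-Cre-, and knockout-labelled libraries (n = 2) had Ctnnb1floxP/floxP; alphaMHC-Cre+. Both groups carry the floxed alleles. They differ in the Cre transgene, which the alphaMHC promoter drives in cardiomyocytes, so the presence of Cre and the loss of the gene cannot be told apart, and the ventricle's other cell types are not targeted.

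An aminoacyl-tRNA synthetase joins an amino acid to its tRNA, the step that gives each codon its meaning in protein synthesis. Cells need a set of these enzymes for the cytosolic ribosomes and another for the ribosomes of the mitochondrion, which make a few core subunits of the respiratory chain. Both sets are encoded in the nucleus. The enzymes fall into structural classes I and II, and several cytosolic ones are bound together in the multisynthetase complex. Many cytosolic synthetase genes respond to ATF4, the transcription factor that is translated when amino acids run short or mitochondria are under stress. Newborn ventricle is a tissue with a high demand for both kinds of translation.

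The libraries held between 34027143 and 45651797 reads in genes. Ctnnb1, the targeted gene, was at 409 and 434 CPM (CPM are read counts scaled to library size with TMM factors) in controls, against 527 and 460 CPM under the knockout label, so the counts over the whole gene do not check the labels. Values joined by "and" are replicates 1 and 2 in order, and where "against" stands alone the controls come first. Ventricular markers were present throughout, with 0 of 10 at a count of 0 in any library. Their summed level was 62240 and 56044 CPM in controls, against 74227 and 83558 CPM under the knockout label. The sum of 8 proliferation markers was 199 and 260 against 484 and 573 CPM, and that of 7 erythroid markers 1092 and 1123 against 765 and 662 CPM. Of 8 macrophage markers 5 lay lower and 1 higher without overlap between groups, with sums of 248 and 184 against 144 and 186 CPM. Of 5 atrial markers 2 lay lower and 0 higher, with sums of 1595 and 2826 against 1473 and 1674 CPM. Of 8 endothelial markers 3 lay lower and 0 higher, and of 8 fibroblast markers 0 lower and 2 higher. Of 7 mural cell markers 3 lay lower and 1 higher, with sums of 687 and 863 against 1806 and 1545 CPM. The higher one was Acta2, at 173 and 332 against 1375 and 1137 CPM. Over all genes tested 29.7% lay lower and 26.5% higher in this way. T cell transcripts stood apart in control 1 (264 CPM over 8 markers, and at most 6.13 CPM elsewhere), and knockout-labelled 2 had the Xist RNA of female cells (602 CPM, and at most 0.327 CPM elsewhere) and 0 reads of the Y-linked Kdm5d, which the others expressed at 37.4 CPM or more. Multiply aligned reads were 19.4% and 21.0% of control reads and 23.9% and 29.7% of knockout-labelled reads. In bulk RNA, a larger share of one cell type and more RNA per cell cannot be told apart, and the part of these differences in the synthetase values below was not tested.

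The promoters below show the letters TGATGNAA (N is any base), the core of the element that ATF4 binds together with a C/EBP partner at amino acid response genes, and show how unevenly the members hold it. RefSeq promoter windows on GRCm38.p6 were read for 13 cytosolic and 14 mitochondrial members, and the other members were not searched. The windows run from 250 bases before to 50 bases after the transcription start. The letters, read on both strands, were found for 5 of the 13 cytosolic members (Aars, Gars, Iars, Tars and Yars) and 0 of the 14 mitochondrial members. They were in 3.97% of all 32851 windows. That share counts windows, while members are counted as genes, so the numbers are not directly comparable. For Gars and Tars 150 bases upstream that hold no annotated exon base are given, with the match in capitals. The same stretch of Farsb, which has no match, is shown because its gene ranked next to Gars in the size of its difference. For Iars and Yars, where the match lies in annotated exon sequence, only 30 bases around a match are given.
Gars, chr6:55037851-55038000, forward strand: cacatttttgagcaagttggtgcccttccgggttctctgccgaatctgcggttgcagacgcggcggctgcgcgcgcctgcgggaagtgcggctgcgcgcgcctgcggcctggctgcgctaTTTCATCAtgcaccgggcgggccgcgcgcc
Tars, chr15:11399666-11399815, reverse strand: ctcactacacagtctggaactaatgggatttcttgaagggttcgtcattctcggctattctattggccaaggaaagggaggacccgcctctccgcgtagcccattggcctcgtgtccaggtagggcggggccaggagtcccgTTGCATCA
Farsb, chr1:78488898-78489047, reverse strand: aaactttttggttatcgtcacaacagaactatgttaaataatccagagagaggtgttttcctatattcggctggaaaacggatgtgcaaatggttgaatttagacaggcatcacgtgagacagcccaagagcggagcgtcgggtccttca
Iars, chr13:49682126-49682155, forward strand: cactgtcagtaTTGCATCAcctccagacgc
Yars, chr4:129189895-129189924, forward strand: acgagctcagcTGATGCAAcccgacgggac
A match is a run of letters and no evidence of binding. CACGTG, the E-box bound by MYC and its relatives, was found for 4 cytosolic members (Aars, Farsb, Iars and Tars) and 1 mitochondrial member (Ears2). It was in 7.15% of all windows, again a share of windows and not of genes.

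Levels were first compared between members in the controls, as CPM per kilobase of annotated exon. This scale understates genes with long annotated exons, such as Eprs with 18102 bases. Gars, which makes both the cytosolic and the mitochondrial glycyl-tRNA synthetase, headed the list at 32.0 and 29.3 CPM per kilobase in controls 1 and 2. Kars, the lysine enzyme, which likewise serves both compartments, followed at 30.7 and 26.1, and these neighbours overlapped. Nars (20.5 and 20.0, asparagine) and Sars (20.6 and 19.4, serine) came next and overlapped too. The most abundant mitochondrial member was Iars2, the isoleucine enzyme, at 17.8 and 15.5 CPM per kilobase, ahead of Ears2 (12.9 and 9.96, glutamate) and Fars2 (9.15 and 8.56, phenylalanine). The lowest were Mars2 (1.54 and 1.43, methionine) and Nars2 (1.34 and 1.49, asparagine), whose values overlapped. Among cytosolic members the lowest was Cars, the cysteine enzyme, at 3.50 and 4.10 CPM per kilobase. In the plot of levels by library, every member is set out on the CPM scale.

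**Figure D1:**
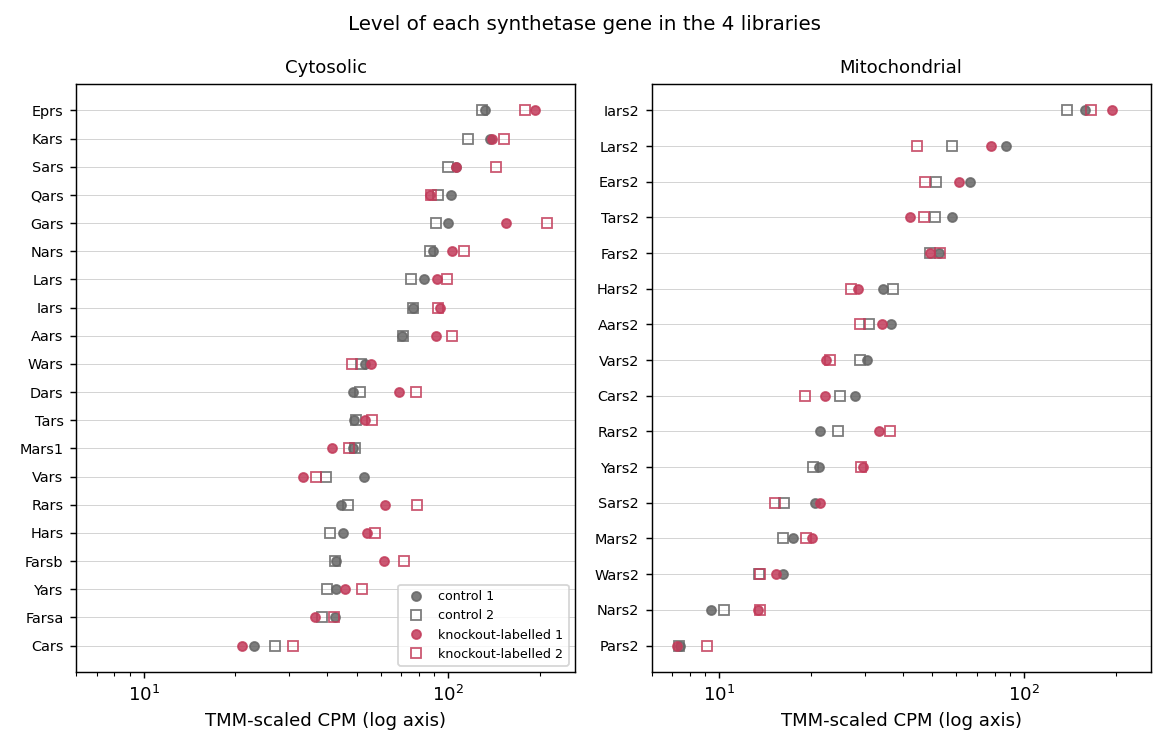
Level of each synthetase gene in TMM-scaled CPM (log axis) in controls 1 and 2 (grey) and knockout-labelled libraries 1 and 2 (red), with cytosolic genes on the left and mitochondrial genes on the right, sorted by control mean. Gars, with 99.7 and 91.4 CPM (grey) against 155 and 210 CPM (red), shows the widest gap, and Lars2 the widest spread within groups.

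The cytosolic set lay higher in the knockout-labelled libraries and the mitochondrial set did not, on the TMM scale. Both knockout-labelled libraries were above both controls for 14 of 20 cytosolic members and below both for 3, against 26.5% of all 18157 genes tested that lay higher and 29.7% that lay lower. Among the 16 mitochondrial members 5 lay higher, 4 lower and 7 overlapped. The median log2 fold change was 0.27 over the cytosolic and -0.03 over the mitochondrial members, beside -0.02 over all genes tested. With library totals in place of TMM the medians were 0.02 and -0.26, beside -0.26 over all genes, so the median of each set moved with the scaling, while the cytosolic median stayed above that of all genes.

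No synthetase passed the main test. With p-values adjusted by Benjamini and Hochberg's method, the quasi-likelihood test of edgeR called 0 of 36 members at an adjusted p under 0.05, where 0.011% of all genes tested were called. At an adjusted p under 0.1 it had 1 member higher, Gars, and 0 lower, against 2.83% of all genes higher and 2.14% lower. Before adjustment, 6 cytosolic and 2 mitochondrial members lay higher at p under 0.05 and 0 of either set lower, against 11.8% of all genes higher and 11.2% lower. DESeq2 called 2 cytosolic members higher, Gars and Farsb, and 0 mitochondrial ones, against 5.58% of genes higher and 4.43% lower, and limma-voom called 0 of 36, with a smallest adjusted p of 0.101. The authors' deposited table likewise listed 2 cytosolic members higher at an adjusted p under 0.05, with log2 fold changes of 0.957 for Gars (adjusted p = 0.00297) and 0.668 for Farsb (adjusted p = 0.0270), and 0 mitochondrial ones. Both DESeq2 calls were lost without control 1 or without control 2, and that of Farsb also without knockout-labelled 2 (adjusted p = 0.112). Without knockout-labelled 1, DESeq2 called 5 cytosolic members higher (Aars, Dars, Farsb, Gars and Rars), where it called 8.9% of all genes higher. With a library left out, a group has a single library, whose variation is assumed to be that of the other group.

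**Figure D2:**
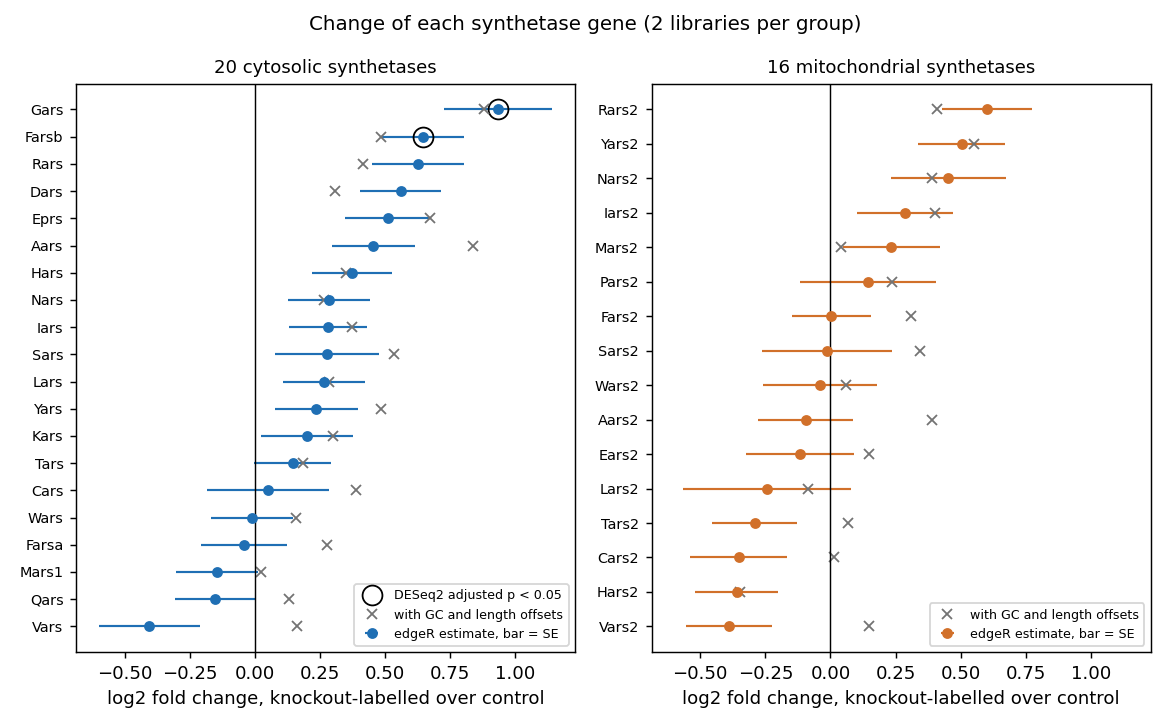
Log2 fold change of each member, knockout-labelled over control, from edgeR (filled points, bars are SE, 2 libraries per group), with the value under GC content and length offsets (crosses) and a ring where DESeq2's adjusted p was under 0.05. The cytosolic genes run from Vars at -0.40 to Gars at 0.93 and the mitochondrial genes from Vars2 at -0.39 to Rars2 at 0.60.

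Gars had the largest difference of the 36. The gene, at chromosome 6, 55038007 to 55079500 (forward strand, GRCm38), gave 99.7 and 91.4 CPM in controls, against 155 and 210 CPM under the knockout label. Both knockout-labelled values stood well above both controls, with the higher of them in knockout-labelled 2. Averages by group were 95.5 ± 5.91 and 183 ± 39.2 CPM (SD, n = 2 each), with log2 fold change 0.93 ± 0.21 (SE; adjusted p = 0.0970 in edgeR, 0.00307 in DESeq2). Its promoter carries TTTCATCA, the reverse complement of a TGATGNAA match, at position -30 from the RefSeq start. In DESeq2 the log2 fold change was 0.96 over all 4 libraries, 1.02 without control 1 (adjusted p = 0.314) and 0.90 without control 2 (adjusted p = 0.354), and its SE rose from 0.25 to 0.41 and 0.40 with a single control library.

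Phenylalanyl-tRNA synthetase is built from the products of Farsa, the catalytic subunit, and Farsb, the partner subunit, which are needed together. Farsb (chromosome 1, 78417975 to 78488897, reverse strand) gave 42.7 and 42.4 CPM in controls, against 61.6 and 71.6 CPM under the knockout label, with no overlap between groups. Its log2 fold change was 0.65 ± 0.16 (SE; adjusted p = 0.109 in edgeR, 0.0273 in DESeq2, and 0.759 and 0.644 in DESeq2 without control 1 and control 2, where the log2 fold change was 0.67 and 0.66). Farsa was at 42.5 and 38.3 CPM against 36.5 and 42.1 CPM, and its groups overlapped. The difference between these subunit genes was not tested. Fars2, the mitochondrial enzyme for the same amino acid, works as a single chain and was at 52.6 and 49.2 CPM against 49.0 and 53.1 CPM.

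On the TMM scale the members of the multisynthetase complex did not all lie on the same side. Of its 8 enzymes 6 lay above both controls in each knockout-labelled library and 2 lay below (26.5% and 29.7% of all genes tested), with a median log2 fold change of 0.27, the same to 2 decimals as that of all 20 cytosolic members. Rars, the arginine enzyme (chromosome 11, 35808381 to 35834506), gave 44.3 and 46.8 CPM in controls, against 62.0 and 78.7 CPM under the knockout label. Dars, the aspartate enzyme (chromosome 1, 128363707 to 128417368), was at 48.6 and 51.1 against 69.0 and 78.0 CPM. Eprs, which carries the glutamate and the proline enzyme in a single chain (chromosome 1, 185363044 to 185428360), was at 131 and 129 against 192 and 179 CPM. In Dars and Eprs the gap between groups was wider than the spread within either, and in Rars it was slightly narrower than that between the knockout-labelled libraries. Their adjusted p-values in edgeR were 0.129, 0.127 and 0.151, and in DESeq2 0.0550, 0.0559 and 0.0536.

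Iars, Lars and Kars, for isoleucine, leucine and lysine, had smaller differences, with log2 fold changes between 0.20 and 0.28. Qars, the glutamine enzyme, gave 102 and 92.7 CPM in controls, against 87.2 and 87.7 CPM under the knockout label, and Mars1, the methionine enzyme, gave 48.7 and 49.5 against 41.6 and 47.2 CPM. These were the complex members that lay lower, and with GC content and length offsets their log2 fold changes were 0.13 for Qars and 0.02 for Mars1, so that all 8 were positive. Mars1 shares 68 bases of exon on the opposite strand with Ddit3, a gene of the ATF4 response, which was at 20.8 and 21.3 against 14.8 and 23.7 CPM. Of the proteins that hold the complex together, Eef1e1 was at 8.79 and 7.54 CPM against 12.8 and 17.8 CPM (adjusted p = 0.134 in edgeR, 0.0298 in DESeq2) and Aimp2 at 13.4 and 11.6 against 14.9 and 22.7 CPM. Aimp1, the third scaffold, overlapped at 78.1 and 68.7 against 67.7 and 90.9 CPM.

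Among the other cytosolic members, Aars, the alanine enzyme (chromosome 8, 111033144 to 111057664), gave 70.4 and 71.1 CPM in controls, against 91.1 and 103 CPM under the knockout label, with log2 fold change 0.46 ± 0.16 (SE; adjusted p = 0.167 in edgeR). Its exons share 1326 bases with Exosc6 on the same strand, where reads cannot be told apart by strand, and Exosc6 had 0 reads in total. Hars, the histidine enzyme, was at 45.1 and 41.0 against 54.2 and 57.3 CPM. Nars, Sars, Tars and Yars also lay higher in both knockout-labelled libraries, with log2 fold changes from 0.15 to 0.29. Sars was nearly level in 3 libraries (106, 99.9 and 106 CPM) and at 143 CPM in knockout-labelled 2. Vars, the valine enzyme (chromosome 17, 35000987 to 35016322), had the lowest log2 fold change of the cytosolic set, at 52.9 and 39.7 CPM in controls, against 33.3 and 36.7 CPM under the knockout label (log2 fold change -0.40 ± 0.19, SE; adjusted p = 0.271 in edgeR). Its control values were far apart, and the sign turned with GC content and length offsets (0.16). Cars and Wars, for cysteine and tryptophan, overlapped between groups. Wars is also known as an interferon-induced gene and was at 53.4 and 51.7 against 55.7 and 48.4 CPM.

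Structural class and the ATF4 grouping were compared within the cytosolic set. Eprs, which holds an enzyme of each class, was left out. The 10 genes of class II had a median log2 fold change of 0.33, with 9 higher in both knockout-labelled libraries, 0 lower and 1 overlapping (Farsa). The 9 genes of class I had a median of 0.05, with 4 higher, 3 lower and 2 overlapping. Over all genes tested 26.5% lay higher and 29.7% lower, which also bears on the counts that follow. With GC content and length offsets these medians were 0.33 and 0.28. The 13 cytosolic genes usually counted among ATF4 targets had a median of 0.27, with 9 higher and 2 lower, and the 7 others a median of 0.37, with 5 higher and 1 lower. Under the offsets their medians were 0.37 and 0.31, so the order of these groups depended on the setting. The genes whose promoter window held TGATGNAA had log2 fold changes of 0.93 (Gars), 0.46 (Aars), 0.28 (Iars), 0.24 (Yars) and 0.15 (Tars).

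In the mitochondrial set 3 members had the clearest gaps upward. Rars2, the arginine enzyme (chromosome 4, 34614957 to 34660167), gave 21.3 and 24.6 CPM in controls, against 33.4 and 36.2 CPM under the knockout label, with log2 fold change 0.60 ± 0.17 (SE; adjusted p = 0.133 in edgeR, 0.0626 in DESeq2). Yars2, the tyrosine enzyme (chromosome 16, 16302965 to 16309640), was at 21.2 and 20.2 against 29.6 and 29.2 CPM (0.50 ± 0.17, SE; adjusted p = 0.155 in edgeR). Nars2 was at 9.35 and 10.4 against 13.4 and 13.6 CPM. In all 3 the groups were far apart relative to the spread within them, and none passed. Iars2 was at 158 and 138 against 195 and 166 CPM. It shares 2034 bases of exon with Rab3gap2 on the opposite strand, and without a stated strand setting their reads cannot be told apart there. Mars2 was at 17.4 and 16.1 against 20.1 and 19.3 CPM.

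The 4 mitochondrial members that lay lower were Vars2, Hars2, Cars2 and Tars2. Vars2, the valine enzyme (chromosome 17, 35655634 to 35667592), gave 30.5 and 29.0 CPM in controls, against 22.4 and 22.998 CPM under the knockout label, with log2 fold change -0.39 ± 0.16 (SE; adjusted p = 0.225 in edgeR). Hars2, the histidine enzyme, was at 34.4 and 37.0 against 28.5 and 27.1 CPM (-0.36 ± 0.16, SE; adjusted p = 0.243 in edgeR). Cars2 was at 27.9 and 24.95 against 22.3 and 19.1 CPM, and Tars2 at 58.1 and 51.1 against 42.3 and 47.0 CPM. Cars2 shares 422 bases of exon with Naxd on the opposite strand. With GC content and length offsets, Hars2 alone of these 4 kept a negative value (-0.35), while Vars2, Cars2 and Tars2 had 0.15, 0.01 and 0.07. Lars2, the leucine enzyme, differed more within groups than between them, at 87.1 and 57.8 CPM in controls, against 77.8 and 44.4 CPM under the knockout label. Aars2, Ears2, Fars2, Pars2, Sars2 and Wars2 also overlapped, with log2 fold changes from -0.12 to 0.14.

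Cytosolic and mitochondrial genes for the same amino acid were then set side by side within each library, which removes the scaling between libraries. There were 13 pairs with a single gene on each side, and the cytosolic member had the higher log2 fold change in 8 and the lower in 5, with a median difference of 0.03. The ratio of cytosolic to mitochondrial CPM was higher in both knockout-labelled libraries for 3 pairs (alanine, histidine and threonine), lower in both for 3 (methionine, asparagine and tyrosine) and overlapped for 7. How often ratios of other gene pairs separate in this way was not worked out, and no pair was tested. The widest difference was that of histidine: Hars over Hars2 was 1.31 and 1.11 in controls, against 1.90 and 2.11 under the knockout label. These genes lie next to each other on chromosome 18 in opposite orientation, Hars from 36766528 to 36783205 and Hars2 from 36783008 to 36792562, and their exons share 195 bases on opposite strands. Farsb over Fars2 was 0.812 and 0.863 against 1.26 and 1.35, Eprs over Ears2 was 1.98 and 2.51 against 3.15 and 3.77, and Aars over Aars2 was 1.93 and 2.30 against 2.66 and 3.56. The genes for isoleucine had nearly the same log2 fold change (0.28 for Iars and 0.29 for Iars2), as did those for arginine (0.63 for Rars and 0.60 for Rars2), and all 4 lay higher. Both genes for valine lay lower (-0.40 for Vars and -0.39 for Vars2).

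**Figure D3:**
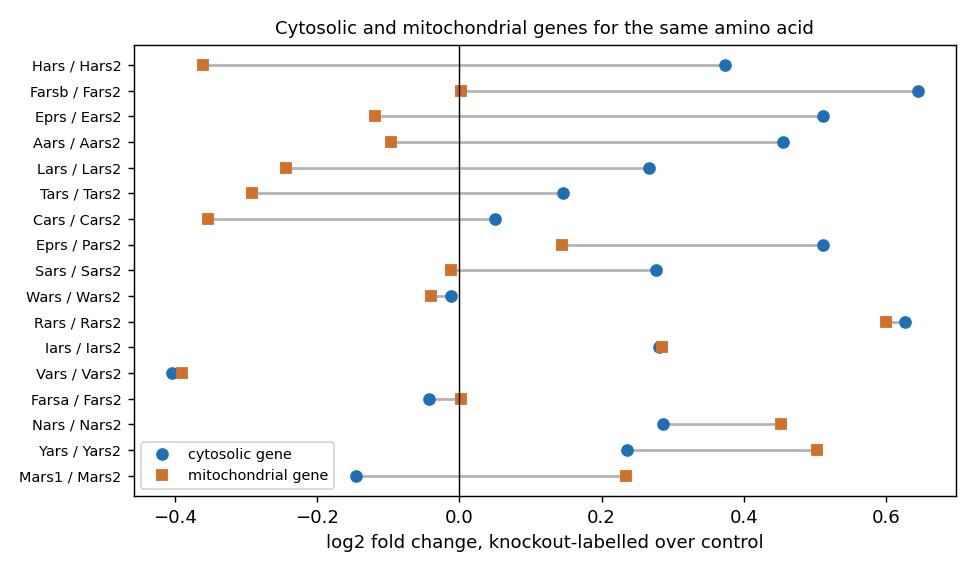
Log2 fold change of the cytosolic gene (circle) and the mitochondrial gene (square) for the same amino acid, joined by a line, sorted by their difference; Eprs appears with both of its mitochondrial counterparts and Fars2 with both cytosolic subunits. Hars and Hars2 are farthest apart (0.37 and -0.36), while Iars and Iars2, Vars and Vars2, and Rars and Rars2 nearly coincide.

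Summed over members, the cytosolic set gave 1388 and 1317 CPM in controls, against 1592 and 1778 CPM under the knockout label, so both knockout-labelled sums were higher. The means were 1352 ± 50.6 and 1685 ± 132 CPM (SD, n = 2 each), a ratio of 1.25. Gars made up 26.2% of that difference and Eprs 16.7%. The mitochondrial sum gave 665 and 578 CPM in controls, against 673 and 592 CPM under the knockout label, which overlapped. The cytosolic share of both sums, which does not depend on the scaling, was 67.6% and 69.5% in controls, against 70.3% and 75.0% under the knockout label. The gap between control 2 and knockout-labelled 1 was smaller than the spread within either group, and the difference between group means of 4.10 percentage points was 1.75 points without knockout-labelled 2 and 6.46 points without knockout-labelled 1. Without Gars the shares were 66.0%, 68.0%, 68.1% and 72.6% in the same order. The library with the highest share also had the highest sum of proliferation markers (573 CPM) and the largest share of multiply aligned reads (29.7%), and the part of either in the share was not tested.

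**Figure D4:**
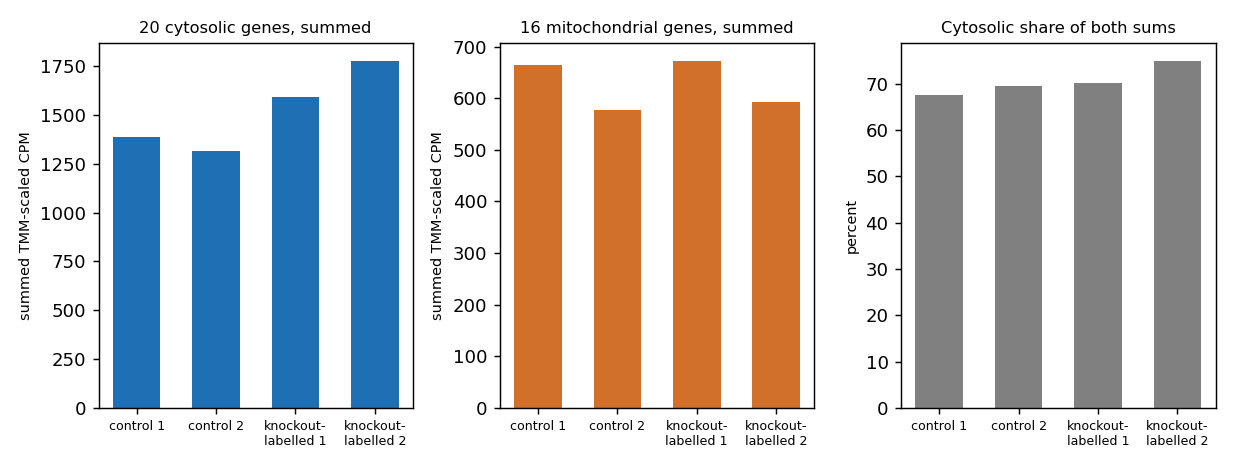
Summed TMM-scaled CPM of the 20 cytosolic genes (left) and the 16 mitochondrial genes (middle), and the cytosolic share of both sums in percent (right), with a bar for each of the 4 libraries. The cytosolic sum is higher in both knockout-labelled libraries (1592 and 1778 CPM) than in the controls, the mitochondrial sums overlap, and the share reaches 75.0% in knockout-labelled 2.

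The members' differences ran with the GC content of their transcripts. Across the 36 genes, which share libraries and are not independent, Pearson's r between GC content and log2 fold change was -0.64 and Spearman's rho -0.70, and over the 14565 protein-coding genes tested they were -0.28 and -0.36. Of the 9 cytosolic members below 50% GC, 9 lay higher in both knockout-labelled libraries, with a median log2 fold change of 0.51. Of the 11 at or above 50%, 5 lay higher and 3 lower, with a median of 0.05. Over all genes tested 26.5% lay higher and 29.7% lower, and these shares were not worked out by GC content. Among mitochondrial members the medians were 0.23 for the 7 below and -0.10 for the 9 at or above 50%, so the order was the same in both compartments. The compartments themselves differed little in GC content, with medians of 50.2% and 51.8%. Trends with GC content and exon length over protein-coding genes were then removed by offsets. With them, all 20 cytosolic members and 14 of the 16 mitochondrial members had a positive log2 fold change. The medians were 0.33 and 0.19, beside 0.05 over all genes. They lay closer together than on the TMM scale, where they were 0.27 and -0.03. With the offsets edgeR called 0 of 36 (smallest adjusted p = 0.112). Gars changed little (0.88) and Aars moved up to 0.84, while Dars moved down to 0.31.

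**Figure D5:**
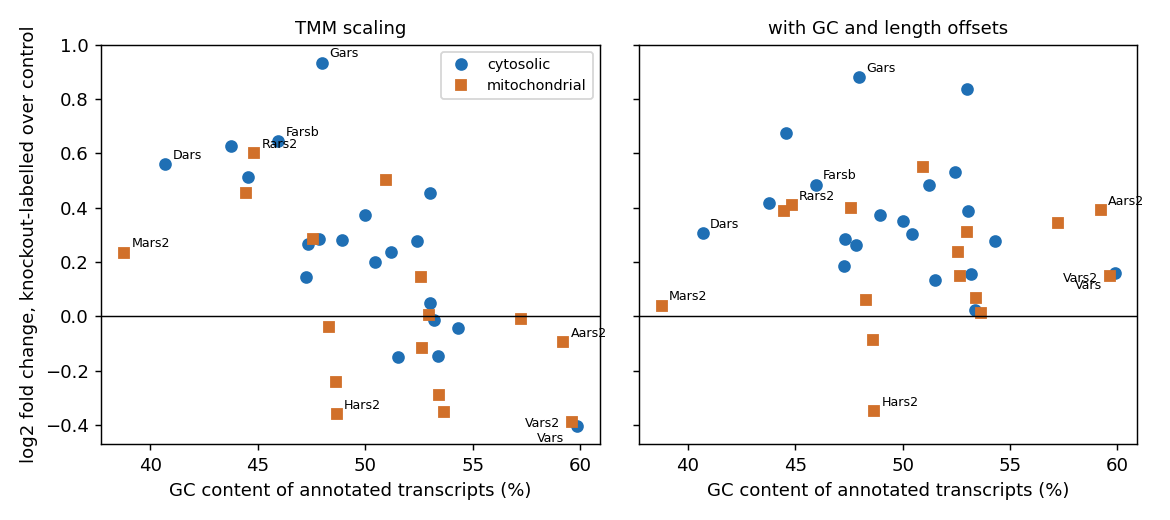
GC content of annotated transcripts (percent) against the log2 fold change of each of the 36 members under TMM scaling (left) and with GC content and length offsets (right), circles for cytosolic and squares for mitochondrial genes. On the left Dars lies at 0.56 (40.7% GC) and Vars at -0.40 (59.9% GC), and on the right the slope is flatter and Hars2 remains at -0.35.

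Genes that work beside the synthetases were read from lists chosen for their function. Of 19 cytosolic initiation and elongation factors, edgeR called 0. Its unadjusted p was under 0.05 for 7 higher and 0 lower (11.8% and 11.2% of all genes tested). DESeq2 called 5 higher and 0 lower (5.58% and 4.43% of all genes with an adjusted p). The median log2 fold change was 0.37. Eif2s1 and Eif2s2, subunits of the factor that brings the initiator tRNA to the ribosome, were at 48.6 and 52.9 against 79.7 and 86.0 CPM and at 86.8 and 97.7 against 147 and 195 CPM. Eef2, the translocation factor, lay lower in both knockout-labelled libraries, at 3797 and 2866 against 2713 and 2410 CPM. Of 13 tested mitochondrial translation factors, edgeR called 0 (unadjusted p under 0.05 for 4 higher and 0 lower), whereas DESeq2 called 3 higher (5.58% of all genes with an adjusted p), and 9 lay higher and 0 lower without overlap (26.5% and 29.7% of all genes), with a median of 0.32. Lrpprc, which stabilises mitochondrial messenger RNA, was at 150 and 142 against 258 and 237 CPM and Gfm1, a mitochondrial elongation factor, at 152 and 132 against 235 and 233 CPM (adjusted p = 0.0981 for Lrpprc and 0.109 for Gfm1 in edgeR). The mitochondrial synthetases, whose median was -0.03, thus lay below these factors on the same scale, a difference that was not tested. With GC content and length offsets the medians were 0.19 for the mitochondrial synthetases and 0.40 for these factors.

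Of 20 genes that mature or modify mitochondrial tRNAs, 7 lay higher and 3 lower in both knockout-labelled libraries (26.5% and 29.7% of all genes tested). The edgeR test called 0, with unadjusted p under 0.05 for 3 higher and 0 lower (11.8% and 11.2% of all genes tested). DESeq2 called 1 higher (5.58% of all genes with an adjusted p). That was Qrsl1, a subunit of the amidase that makes glutaminyl-tRNA in the mitochondrion, at 26.6 and 29.3 against 40.2 and 46.8 CPM. Its partners Gatb and Gatc overlapped. Trmt10c, a subunit of the mitochondrial RNase P and tRNA methyltransferase, gave 18.8 and 19.1 against 26.1 and 36.6 CPM. Of 22 mitochondrially encoded tRNA genes only 2 had enough reads to be tested in these polyA libraries. mt-Tp, the proline tRNA, gave 31.7 and 31.3 against 58.4 and 102 CPM, and mt-Tc, the cysteine tRNA, 0.0858 and 1.21 against 0.812 and 0.473 CPM. PolyA selection does not capture mature tRNAs as a class, so these values are no measure of their abundance. Of 5 proofreading genes 2 lay higher and 2 lower (26.5% and 29.7% of all genes tested), and 1 overlapped. Their median log2 fold change was 0.24. The edgeR test called 0 of them, with unadjusted p under 0.05 for 0 higher and 2 lower (11.8% and 11.2% of all genes tested). Ankrd16, which assists the alanine enzyme in rejecting serine, was at 77.9 and 78.4 against 46.2 and 51.3 CPM (log2 fold change -0.68 ± 0.15, SE; adjusted p = 0.0977 in edgeR, 0.0215 in DESeq2), so it lay lower while Aars lay higher. Aarsd1, an editing protein for the same tRNA, was near the limit of counting at 0.429 and 0.817 against 0.248 and 0.203 CPM.

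Of 34 tested genes of the ATF4 amino acid response, edgeR called 0. Its unadjusted p was under 0.05 for 7 higher and 0 lower (11.8% and 11.2% of all genes tested). DESeq2 called 6 higher and 0 lower (5.58% and 4.43% of all genes with an adjusted p). The median log2 fold change was 0.19. In this list 9 lay higher in both knockout-labelled libraries, 3 lower and 22 overlapped; the share that lay higher was that of all genes tested (26.5%). Psat1, of serine synthesis, was at 19.3 and 16.4 against 34.8 and 39.7 CPM, and Pycr1, of proline synthesis, at 1.74 and 1.76 against 4.51 and 4.60 CPM. Asns, asparagine synthetase, was at 3.75 and 3.31 against 5.77 and 13.3 CPM, with the higher value in knockout-labelled 2 as for Gars. DESeq2 called these genes higher, and also Mthfd2, Slc7a5 and Gdf15. Mthfd2 was at 3.45 and 2.58 against 6.36 and 15.0 CPM, and Slc7a5 at 14.8 and 10.7 against 21.8 and 22.0 CPM. Gdf15 was at 0.772 and 1.16 against 1.24 and 8.29 CPM. Atf4 itself was at 109 and 116 against 134 and 162 CPM. Chac1, Trib3 and Ddit3, other genes used as readouts of this response, overlapped between groups. Chac1 rested on few reads, with counts of 14 and 16 against 7 and 20.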

How the data were processed

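The 4 libraries were made from polyA RNA with a stranded kit, per the labels' protocols. The submitters' processing notes name bcl2fastq 2.16.0.10, FastQC 0.11.5, STAR 2.5.3a, HTSeq 0.6.1, DESeq2 1.18 and GRCm38. HTSeq's strand setting and the annotation release: not given in the sources used here. Each deposited count is a whole number of reads in a gene, unscaled, and the authors' series table repeats these with 0 differing values. It also holds log2 fold changes by the authors, and their adjusted p-values. Of its other columns 14 were not used, 4 of them normalized values per sample. Identifiers were matched without version to GENCODE vM21 (53360 of 53465), and 5 summary categories stayed out of library sizes.

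The main test was edgeR 4.0.16 in R 4.3.3 (filterByExpr, TMM, quasi-likelihood, Benjamini-Hochberg over 18157 genes, threshold 0.05). DESeq2 1.42.0 and limma 3.58.1 were alternatives. On simulated data the share of false calls was above the threshold for each tool, and higher for DESeq2 and the replicate block than for edgeR and limma-voom. An SD is over 2 libraries, and each log2 fold change carries its SE. Replicates differed by more than counting error (chi-square per degree of freedom 50.2 and 119). Offsets for GC content and exon length came from loess curves (span 0.3) per library over protein-coding genes. The members and lists were chosen with earlier results of these data known. The naming rule took the 8 members of each compartment with the smallest p, the 3 most abundant per kilobase, the 4 pairs farthest apart, and the 2 genes of each companion list with the smallest p. All other genes named with values were chosen after their values were seen. Copies were sought at 90% identity over 200 bases; outside overlapping loci Iars alone had one, a pseudogene (Gm4849) at 94.7% identity with 55 reads. The promoter sequence of 1 member with a match is not reported here.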

Additional observations from a re-analysis of the deposited data

How the results depend on the processing

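Over all genes edgeR called 2, DESeq2 1706, limma-voom 0, edgeR without the low-count filter 554, and edgeR without a library between 0 and 30. With the replicate number as a block it called 18, and 4 with GC content and length offsets added. Same-numbered libraries deviated from their group means with a correlation of -0.116. With 2 libraries per group the crossed value is 0.116 by construction, so this cannot decide whether the numbers pair the libraries. A crossed block, chosen after seeing the data like the DESeq2 fits and overlap counts without a library, called 941. Cytosolic members called were 2 in DESeq2 and 1 under the crossed block (Gars), and 0 in the other edgeR and limma-voom settings; DESeq2 without a library called between 0 and 5. Mitochondrial members called were 0 in each of these settings. The cytosolic median log2 fold change was 0.023 with library totals and between 0.19 and 0.37 without a library. The mitochondrial median was -0.26 with library totals, 0.19 with the offsets, 0.19 with block and offsets, and between -0.16 and 0.088 without a library. In all 15 settings 16 members kept their sign, 11 cytosolic and 5 mitochondrial.

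Signs turned for these members. With library totals the log2 fold changes were Cars -0.21, Kars -0.043, Tars -0.10, Yars -0.0091, Fars2 -0.24, Mars2 -0.00497, Pars2 -0.10. With the offsets, and with block and offsets, they were Farsa 0.28 and 0.27, Mars1 0.023 and 0.025, Qars 0.13 and 0.13, Vars 0.16 and 0.16, Wars 0.16 and 0.15, Aars2 0.39 and 0.39, Cars2 0.014 and 0.013, Ears2 0.15 and 0.15, Sars2 0.35 and 0.32, Tars2 0.069 and 0.062, Vars2 0.15 and 0.15, Wars2 0.058 and 0.061. DESeq2 gave Wars 0.0098, Sars2 0.00996, its size factors in edgeR Wars 0.017, Sars2 0.016, and limma-voom Sars2 0.00401. Without the filter the value was Fars2 -0.0013, and with CPM over 1 in at least 2 libraries Fars2 -0.0078. Leaving out a library gave ranges of Cars -0.24 to 0.35, Farsa -0.14 to 0.11, Wars -0.064 to 0.095, Aars2 -0.20 to 0.028, Ears2 -0.28 to 0.079, Fars2 -0.046 to 0.11, Lars2 -0.65 to 0.11, Pars2 -0.019 to 0.35, Sars2 -0.23 to 0.22, Wars2 -0.16 to 0.10. The cause was not tested.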
